A study of Homo sapiens with 6 samples.

Results

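The mitochondrial protein import machinery was followed in RPMI-8402 cells, an established line of human T-ALL (acute lymphoblastic leukaemia of T cells), after Cas9 was directed at MYC. The genes were found by name: 24 symbols of the TIMM and TOMM families and 9 further named genes, with 9 rows of pseudogenes removed. This gave 33 gene symbols on 37 gene identifiers, of 63677 genes in the table, and 31 symbols had enough counts to be tested. TOMM6 and TIMM23B did not, and neither did second identifiers of TIMM10B, with 2 counts in doxycycline replicate 1 and 0 elsewhere, and of TIMM17B and TIMM8A, both at 0 in every sample. The doxycycline group held 3 samples in which 72 hours of the drug induced the guide RNAs that direct Cas9 to MYC, and the DMSO group held 3 samples given the solvent alone. All 6 samples carried Cas9, were labelled MYC_KO and were grown in medium with tetracycline-free serum. The labels name no sample given doxycycline without guides. Doxycycline is also an antibiotic that acts on bacterial and mitochondrial ribosomes, and its own effect cannot be told apart from that of the guides. Nothing in the labels says that replicates were separate cultures, so the p-values below rest on a spread between samples that may be technical alone.

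Nearly all mitochondrial proteins are made in the cytosol and enter the organelle through these complexes. The TOM complex is the gate of the outer membrane, the SAM complex builds barrel proteins into that membrane, and the CHCHD4 and GFER relay traps cysteine-rich proteins between the membranes. Small TIM chaperones ferry hydrophobic proteins, TIM22 inserts carriers into the inner membrane, and TIM23 with its motor pulls proteins into the matrix, where a peptidase cuts off the targeting sequence. MYC is known in many cell types as an activator of genes for growth and mitochondrial biogenesis.

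Total counts ranged from 23121255 to 26214598 per sample. MYC itself, the targeted gene, stood at 459, 431 and 431 CPM in doxycycline samples against 409, 422 and 407 CPM in DMSO samples (log2 fold change 0.09, edgeR adjusted p = 0.160). CPM are counts scaled to a common library total with TMM normalization. The MYC count was not called lower, so it checks neither the labels nor whether the gene was cut. Small insertions or deletions would leave most reads countable, and whether they were present was not tested. Of 13 T lineage markers, 10 were at 1 CPM or more in every sample, while CD1A, LMO2 and, in 1 sample, PTCRA lay under that level. The 13 summed to 3840 to 3984 CPM in doxycycline and 3667 to 3734 CPM in DMSO samples. Markers of B cells summed to 16.2 to 17.1 CPM in doxycycline and 11.5 to 12.9 CPM in DMSO samples, with MS4A1 at 0. Myeloid markers summed to 1.64 to 1.97 CPM in doxycycline and 0.909 to 1.19 CPM in DMSO samples, with CD33 at 0. Of 5 fibroblast and epithelial markers, COL1A1 alone passed 1 CPM in every sample, EPCAM and COL1A2 were at 0, and the sum was 48.0 to 53.7 CPM in doxycycline and 40.3 to 40.7 CPM in DMSO samples. The part of these markers in the results below was not tested.

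The promoters of 3 import genes are shown to let their motifs be read beside the changes below: TOMM22, which had the smallest p of the group, and TOMM20 and TIMM10, the genes called lower whose promoter held the E-box CACGTG, the sequence that MYC with MAX is known to bind. The sequences are from RefSeq (GRCh38.p14), on the strand of the gene, from 250 bases before the start of the gene to 10 bases from the start on. Capitals mark CACGTG and the ETS motif CCGGAAG on either strand.
TOMM22 (chr22:38681707-38681966, plus strand): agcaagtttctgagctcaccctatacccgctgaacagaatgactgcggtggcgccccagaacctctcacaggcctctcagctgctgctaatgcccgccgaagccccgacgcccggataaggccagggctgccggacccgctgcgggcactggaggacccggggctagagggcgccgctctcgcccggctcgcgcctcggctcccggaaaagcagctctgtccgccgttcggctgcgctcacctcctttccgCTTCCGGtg
TOMM20 (chr1:235128828-235129087, minus strand): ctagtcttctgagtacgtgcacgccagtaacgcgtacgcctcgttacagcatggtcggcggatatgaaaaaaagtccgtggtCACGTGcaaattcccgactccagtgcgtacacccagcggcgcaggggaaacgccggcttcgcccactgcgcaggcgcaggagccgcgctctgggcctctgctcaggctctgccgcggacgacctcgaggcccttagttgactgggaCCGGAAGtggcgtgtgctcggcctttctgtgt
TIMM10 (chr11:57530745-57531004, minus strand): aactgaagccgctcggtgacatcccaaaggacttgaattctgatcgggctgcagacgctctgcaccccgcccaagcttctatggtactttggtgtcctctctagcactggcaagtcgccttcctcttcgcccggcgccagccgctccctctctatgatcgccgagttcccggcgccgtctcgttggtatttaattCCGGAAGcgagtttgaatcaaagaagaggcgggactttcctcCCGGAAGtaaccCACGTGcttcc
In TOMM20 the E-box lies 168 bases before the start and an ETS match 22 bases before it. In TIMM10 the E-box begins 1 base before the start, and ETS matches lie 55 and 13 bases before it. The TOMM22 promoter held no CACGTG and a reverse ETS match at its start.

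Matches were counted on both strands in windows of 250 bases before and 50 after the start, for the 28 tested import genes with an entry in the RefSeq table. CACGTG was found in 3 of 28 (TOMM20, TIMM10 and TIMM8A), or 10.7%, against 12.6% of 9658 tested genes with an entry. The variant CACGCG was found in 7 of 28, or 25%, against 22.3% of tested genes. The motif of NRF1, a regulator of nuclear genes for mitochondria, was searched as GCGCA and GCGC with any 1 base between them and was found in 5 of 28, or 17.9%, against 13.3%. CCGGAAG was found in 10 of 28, or 35.7%, against 22% of tested genes. It stood in 9 of 18 promoters of import genes called lower and in 1 of 10 of those not called, that of TOMM34. The same split was 2 of 18 and 1 of 10 for CACGTG, 4 of 18 and 3 of 10 for CACGCG, and 4 of 18 and 1 of 10 for NRF1. None of these splits was tested, and none was set against all genes called lower. No matches of different motifs overlapped in these promoters. A match describes letters in a window and not a bound site, and the table does not hold every gene.

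In doxycycline samples 21 of 31 tested import genes fell, 0 rose and 10 were not called by edgeR at an adjusted p under 0.05. Of all 15492 tested genes, 15.5% were called lower and 13.8% higher. The changes were small: the median log2 fold change over the 31 was -0.27, a level 0.832 times that of DMSO, beside -0.00 over all tested genes. Sizes of rises and falls of single genes are given on the log2 scale throughout. None of the 31 changed by 1.5-fold or more, and 6 were lower by at least 20%. Summed over the 31 genes, the level was 1458, 1468 and 1472 CPM in doxycycline samples against 1708, 1767 and 1730 CPM in DMSO samples. Each doxycycline sum lay under every DMSO sum, with means of 1466 ± 7.69 and 1735 ± 29.8 CPM (SD, n = 3 each), a ratio of 0.845. Gene by gene, every doxycycline sample lay below every DMSO sample for 22 of the 31, where 21.0% of all tested genes did so, and above for 0 of the 31, where 20.7% did so. In bulk RNA, fewer cells that express a gene and less of its RNA per cell cannot be told apart.

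**Figure D1:**
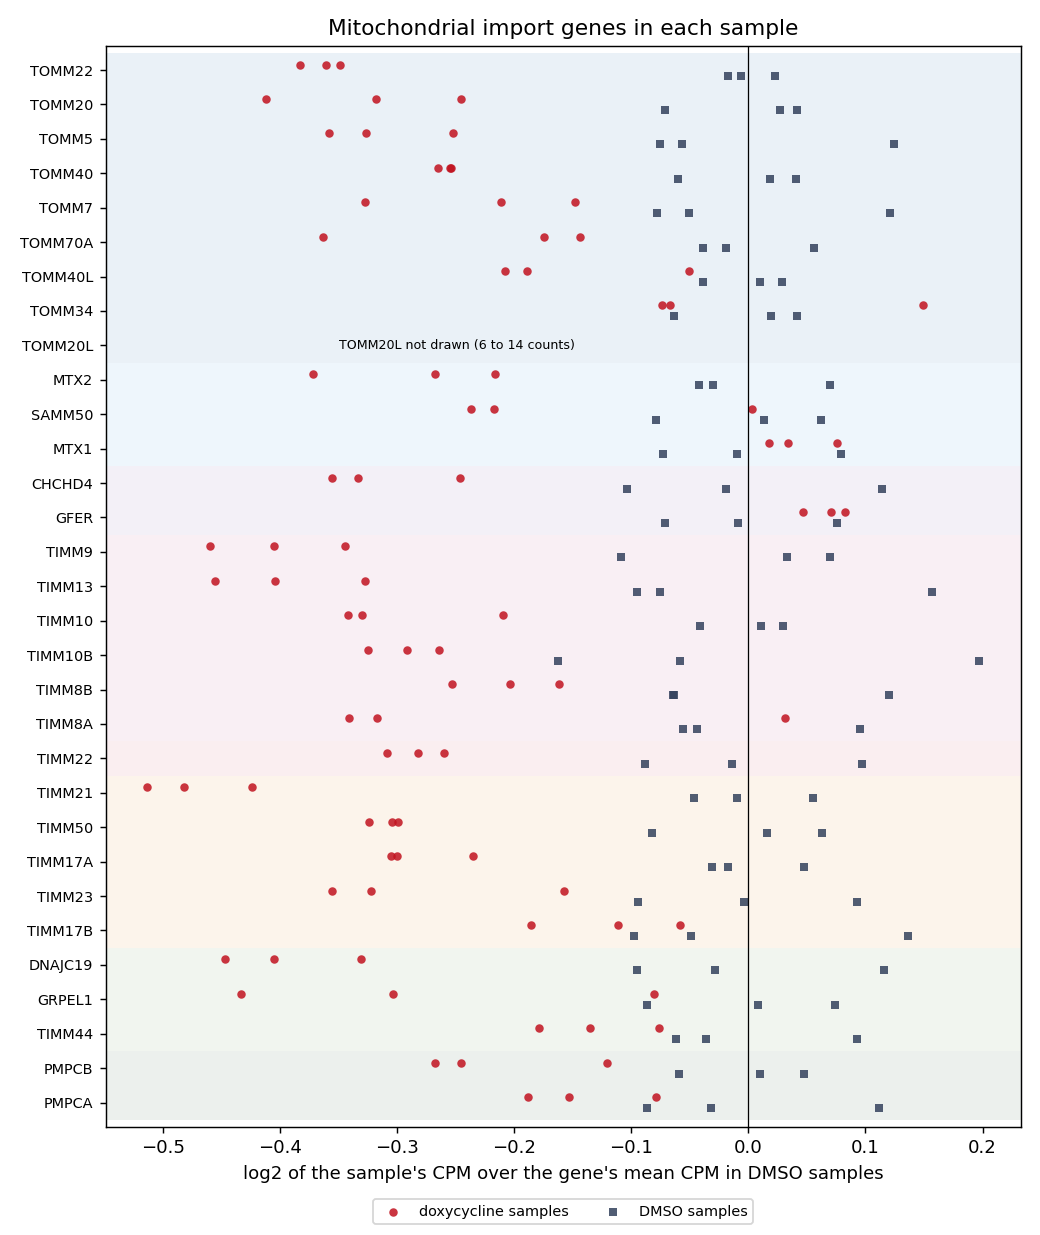
Level of each tested import gene in each sample, as the log2 of the sample's CPM over the gene's mean CPM in DMSO samples; circles are doxycycline samples and squares DMSO samples, and shading groups genes by complex or gene family. For 22 of the 31 tested genes every doxycycline sample lies left of every DMSO sample, and TOMM20L is not drawn because it had 6 to 14 counts.

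The size of the fall moved with the base composition of the transcripts. Over all tested genes, log2 fold changes rose with the GC content of the longest transcript (Spearman's rho 0.41 across genes, which share the same 6 libraries and are not independent replicates), and over the 30 import genes with a GC value rho was 0.43. Fitted with GC content and length corrected, called the correction from here on, 11 of 30 import genes fell and 0 rose, their median being -0.16, where 11.4% of 15036 genes were called lower. A true change that runs with GC content or length would be taken out as well. Of the 17 import genes with GC content under 50%, 15 fell without the correction and 4 with it. Of all 8217 tested genes in that range, 23.8% were called lower without the correction, at a median of -0.08. Of the 13 import genes at 50% or over, 5 fell without it and 7 with it. Of all 6819 tested genes in that range, 6.34% were called lower without the correction, at a median of 0.10. The share of all genes called lower with the correction was not counted by GC range. The 4 of 17 and 7 of 13 with the correction are therefore not to be set against 23.8% and 6.34%. Set against all tested genes of the same GC decile, 29 of 30 import genes lay below the decile's median, and 23 of 30 lay below its lower quartile, under which 25% of all genes lie by definition. The median distance from the decile median was -0.22, from -0.57 for TIMM13 to 0.09 for TOMM20L. Whether the GC trend is technical was not tested.

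**Figure D2:**
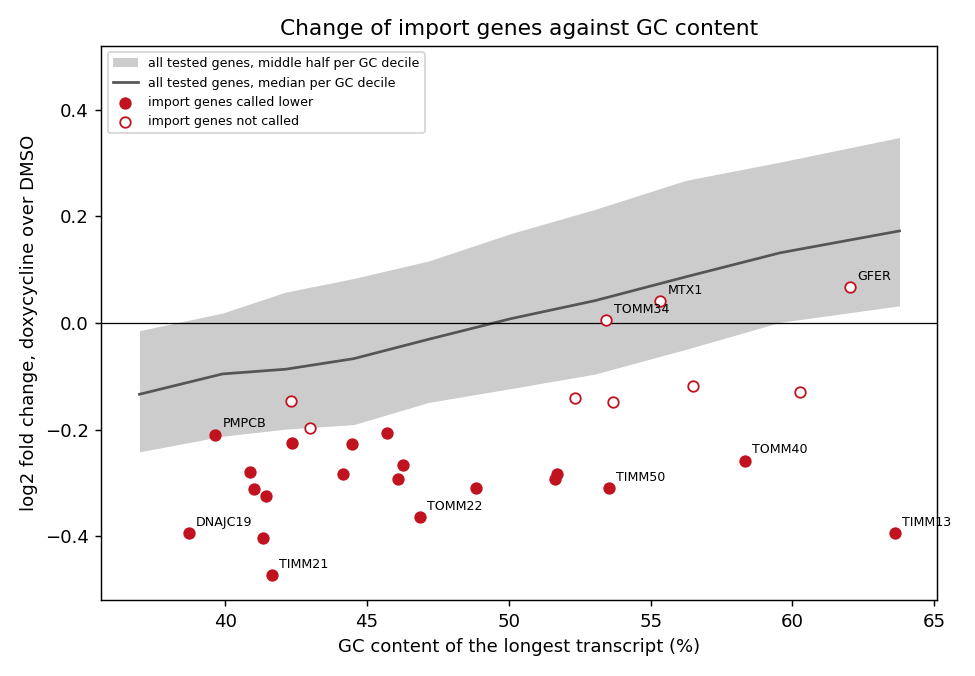
Log2 fold change of import genes, doxycycline over DMSO, against the GC content of the longest transcript in percent; filled circles are genes called lower, open circles genes not called, the line is the median and the band the middle of the distribution from lower to upper quartile of all tested genes in each of 10 GC deciles. TIMM13 and TOMM40 lie far below the band at high GC content, whereas MTX1, TOMM34 and GFER lie within it; TOMM20L is not drawn.

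Of 9 tested TOMM genes 6 fell, with a median of -0.23 over the 9. The 6 are the tested receptors and subunits of the TOM complex (TOMM20, TOMM22, TOMM40, TOMM70A, TOMM5 and TOMM7), and the others are the relatives TOMM40L and TOMM20L and the cytosolic TOMM34. TOMM22, the central receptor that holds the complex together, was at 55.4, 55.9 and 54.6 CPM in doxycycline samples against 70.3, 72.3 and 70.9 CPM in DMSO samples. The groups did not overlap. Means were 55.3 ± 0.668 CPM in doxycycline and 71.2 ± 1.02 CPM in DMSO samples (SD, n = 3 each), and TOMM22 fell by 0.36 on the log2 scale (SE 0.0525, edgeR adjusted p = 1.64e-05). TOMM20, the receptor for targeting sequences, was at 179, 201 and 191 CPM in doxycycline samples against 243, 227 and 245 CPM in DMSO samples. It fell by 0.32 (SE 0.0521, edgeR adjusted p = 5.72e-05), with no overlap. TOMM40, the channel itself, was at 182, 180.2 and 182 CPM in doxycycline samples against 208, 223 and 219 CPM in DMSO samples. The doxycycline samples lay within 2 CPM of each other, and TOMM40 fell by 0.26 (SE 0.0481, edgeR adjusted p = 2.72e-04). With GC content and length corrected these 3 genes still fell, by 0.24, 0.19 and 0.37.

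TOMM70A, the receptor for carrier proteins, was at 105, 120.0 and 123 CPM in doxycycline samples against 134, 132 and 141 CPM in DMSO samples. It fell by 0.22 (SE 0.0557, edgeR adjusted p = 0.00357), with doxycycline replicate 1 the lowest sample. The small subunits TOMM5 and TOMM7, which help to assemble the pore, fell by 0.31 and 0.23 (edgeR adjusted p = 0.0121 and 0.0134). After the correction TOMM70A, TOMM5 and TOMM7 were not called (-0.13, -0.17 and -0.01; edgeR adjusted p = 0.0514, 0.180 and 0.953). Without DMSO replicate 2 neither TOMM5 (edgeR adjusted p = 0.0651) nor TOMM7 (0.0743) was called, and TOMM7 was not called without doxycycline replicate 2 (0.0841). The remaining subunit, TOMM6, was listed at 0 counts in every sample. In GENCODE 29 its exons overlap those of another gene on the same strand, and whether that accounts for the 0 was not tested.

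TOMM34, a cytosolic co-chaperone that is named with the family but is no part of the gate, was at 87.9, 75.3 and 75.7 CPM in doxycycline samples against 81.6, 80.4 and 75.9 CPM in DMSO samples. The groups overlapped, and TOMM34 did not pass (log2 fold change 0.01, SE 0.0593, edgeR adjusted p = 0.953). TOMM40L, a relative of the channel, was at 15.5, 15.3 and 17.1 CPM in doxycycline samples against 18.05, 17.2 and 17.8 CPM in DMSO samples. It did not pass (-0.15, edgeR adjusted p = 0.142) although the groups did not overlap. TOMM20L, a relative of the TOMM20 receptor, had 7, 12 and 14 counts in doxycycline samples and 10, 12 and 6 counts in DMSO samples, too few to show a change of the size seen elsewhere (SE 0.391).

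**Figure D3:**
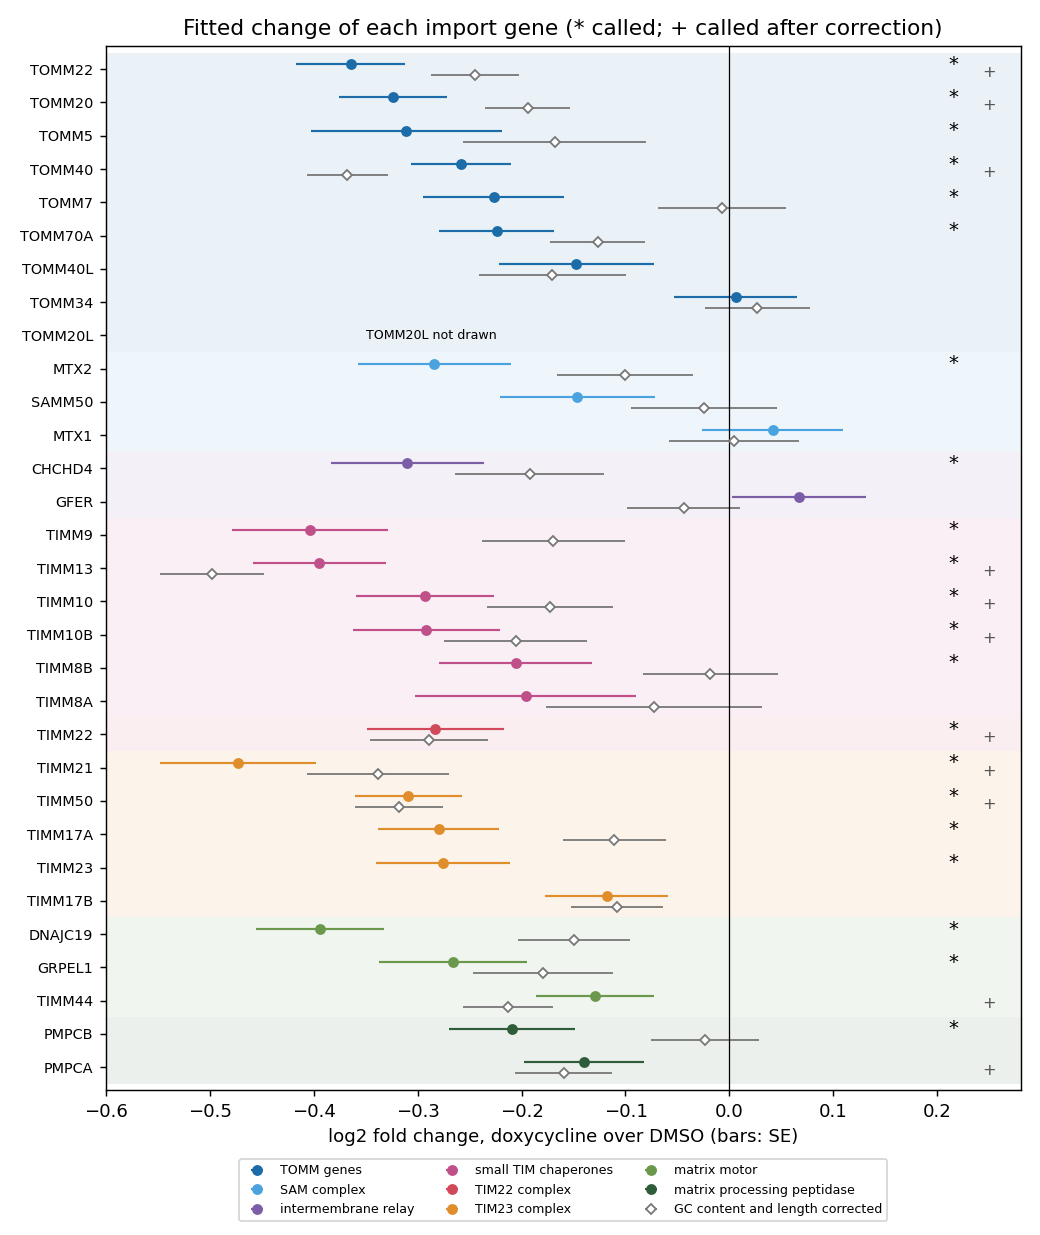
Fitted log2 fold change of each tested import gene, doxycycline over DMSO, with bars for 1 SE; filled circles are coloured by complex or gene family, open diamonds are the values with GC content and length corrected, a star marks genes called without and a plus genes called with the correction. Of 31 genes 21 carry a star and of 30 fitted with the correction 11 carry a plus; TIMM23 has no corrected value and TOMM20L is not drawn.

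Of the SAM complex 1 of 3 genes fell. MTX2, a metaxin on the cytosolic face of the complex, was at 15.3, 17.1 and 16.5 CPM in doxycycline samples against 19.3, 20.8 and 19.4 CPM in DMSO samples. It fell by 0.28 (SE 0.0737, edgeR adjusted p = 0.00500), and was not called after the correction (-0.10, edgeR adjusted p = 0.290). MTX1, its partner metaxin, was at 22.7, 23.0 and 23.6 CPM in doxycycline samples against 23.7, 22.3 and 21.3 CPM in DMSO samples. These groups overlapped, at a log2 fold change of 0.04 (SE 0.0677, edgeR adjusted p = 0.689). SAMM50, the barrel that gives the complex its channel, did not pass at -0.15 (SE 0.0747, edgeR adjusted p = 0.143), but passed as lower without doxycycline replicate 3 (-0.23, edgeR adjusted p = 0.0471). The exons of MTX1 face those of THBS3 and other genes in GENCODE 29, and those of SAMM50 overlap PNPLA3 on the same strand. The counts of both genes are therefore uncertain.

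Of the 2 genes of the disulphide relay, 1 was called lower. CHCHD4, the oxidoreductase that receives incoming proteins, was at 18.3, 17.0 and 17.2 CPM in doxycycline samples against 21.4, 20.2 and 23.5 CPM in DMSO samples. It fell by 0.31 (SE 0.0740, edgeR adjusted p = 0.00259; -0.19 and 0.0591 after the correction). GFER, the sulfhydryl oxidase that reoxidises CHCHD4, was at 27.4, 26.8 and 27.2 CPM in doxycycline samples against 24.7, 27.3 and 25.8 CPM in DMSO samples. GFER did not pass, at 0.07 (SE 0.0647, edgeR adjusted p = 0.471), and the groups overlapped. After the correction GFER stood at -0.04 (edgeR adjusted p = 0.610), and neither gene was called. A difference between the changes of these genes was not tested.

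Of the small TIM chaperones, 5 of 6 fell, with a median of -0.29. TIMM13, which works with TIMM8A, was at 49.4, 47.7 and 52.1 CPM in doxycycline samples against 62.1, 72.9 and 61.2 CPM in DMSO samples. It fell by 0.39 (SE 0.0639, edgeR adjusted p = 6.11e-05), and by 0.50 after the correction, the largest fall of the group in that fit. Its exons overlap LMNB2 on the same strand in GENCODE 29, so its counts are uncertain. TIMM9, which with TIMM10 forms the main chaperone of carriers, was at 15.9, 15.2 and 14.7 CPM in doxycycline samples against 20.7, 21.2 and 18.7 CPM in DMSO samples. TIMM9 fell by 0.40 (SE 0.0750, edgeR adjusted p = 2.63e-04), and was not called after the correction (-0.17, edgeR adjusted p = 0.0828). TIMM10 was at 21.5, 21.7 and 23.6 CPM in doxycycline samples against 27.8, 27.5 and 26.5 CPM in DMSO samples. TIMM10 fell by 0.29 (SE 0.0663, edgeR adjusted p = 0.00164), and by 0.17 after the correction (edgeR adjusted p = 0.0462).

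TIMM10B, the relative that docks the chaperones on TIM22, was at 39.2, 37.6 and 38.5 CPM in doxycycline samples against 45.3, 42.1 and 54.0 CPM in DMSO samples. The groups did not overlap and DMSO replicate 3 was the highest sample; TIMM10B fell by 0.29 (SE 0.0708, edgeR adjusted p = 0.00296). Without DMSO replicate 3 it fell by 0.19 (edgeR adjusted p = 0.0338). TIMM8B was at 17.6, 18.2 and 18.7 CPM in doxycycline samples against 20.03, 22.8 and 20.04 CPM in DMSO samples. Its fall of 0.21 was the weakest call of the 21 (SE 0.0733, edgeR adjusted p = 0.0354). It was lost under 10 of 16 alternatives, among them without DMSO replicate 2 (-0.14, edgeR adjusted p = 0.164), without doxycycline replicate 1 (0.119), 2 (0.0750) or 3 (0.0580), and after the correction (-0.02, 0.872). Its exons face those of SDHD. TIMM8A, the X-linked gene mutated in a deafness and dystonia syndrome, was at 7.25, 7.13 and 9.23 CPM in doxycycline samples against 8.69, 8.76 and 9.65 CPM in DMSO samples. It did not pass (-0.20, SE 0.107, edgeR adjusted p = 0.171), but passed as lower without doxycycline replicate 3 (-0.33, edgeR adjusted p = 0.0382).

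TIMM22, the channel for carriers in the inner membrane, was at 25.01, 24.6 and 24.2 CPM in doxycycline samples against 28.2, 32.0 and 29.6 CPM in DMSO samples. It fell by 0.28 (SE 0.0659, edgeR adjusted p = 0.00213) and by 0.29 after the correction.

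Of the TIM23 complex 4 of 5 tested genes fell, with a median of -0.28. TIMM21, which in human cells also joins assembly intermediates of the respiratory chain, was at 13.2, 13.5 and 14.1 CPM in doxycycline samples against 18.7, 19.6 and 18.3 CPM in DMSO samples. Its log2 fold change of -0.47 (SE 0.0747, edgeR adjusted p = 4.66e-05), 27.9% lower, was the largest of the 31, and it fell by 0.34 after the correction. TIMM50, the receptor that hands proteins from TOM to the channel, was at 92.6, 93.9 and 94.2 CPM in doxycycline samples against 109.6, 121 and 117 CPM in DMSO samples. TIMM50 fell by 0.31 (SE 0.0514, edgeR adjusted p = 8.35e-05) and by 0.32 after the correction.

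TIMM23, the channel subunit, was at 37.0, 42.4 and 37.9 CPM in doxycycline samples against 47.2, 44.3 and 50.5 CPM in DMSO samples. It fell by 0.28 (SE 0.0647, edgeR adjusted p = 0.00227), and had no corrected value because its identifier is not in GENCODE 29. Near-identical copies make it uncertain: the files list 2 further identifiers as TIMM23B, one at 0 counts in every sample and the other at 1, 1 and 4 counts in doxycycline and 0, 3 and 2 counts in DMSO samples, and neither was tested. Values are given under the deposited names, and the naming of these identifiers differs between releases. TIMM17A, a partner of the channel that is known to be lost from stressed mitochondria, was at 35.7, 35.6 and 37.4 CPM in doxycycline samples against 45.5, 43.1 and 43.4 CPM in DMSO samples. TIMM17A fell by 0.28 (SE 0.0585, edgeR adjusted p = 8.04e-04), and was not called after the correction (-0.11, edgeR adjusted p = 0.117). TIMM17B, its X-linked counterpart, was at 83.7, 80.6 and 76.6 CPM in doxycycline samples against 84.2, 95.7 and 81.4 CPM in DMSO samples. TIMM17B did not pass (-0.12, edgeR adjusted p = 0.135) and its groups overlapped. Without DMSO replicate 3 it passed as lower (-0.17, edgeR adjusted p = 0.0410), and without DMSO replicate 2 it stood at -0.05 (0.571).

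Of the motor that draws proteins into the matrix, 2 of 3 genes fell. DNAJC19, the J-domain protein that stimulates the motor's HSP70, was at 40.2, 43.5 and 41.3 CPM in doxycycline samples against 53.7, 59.3 and 51.3 CPM in DMSO samples. It fell by 0.39 (SE 0.0618, edgeR adjusted p = 4.39e-05), with no overlap. It has the lowest GC content of the group, at 38.7%, and after the correction it stood at -0.15 (edgeR adjusted p = 0.0519). GRPEL1, the nucleotide exchange factor of the motor, was at 45.2, 38.7 and 35.4 CPM in doxycycline samples against 48.1, 50.3 and 45.0 CPM in DMSO samples. GRPEL1 fell by 0.27 (SE 0.0714, edgeR adjusted p = 0.00636) and was the sole called gene whose groups overlapped, by doxycycline replicate 1. Its call was lost without doxycycline replicate 3 (-0.19, edgeR adjusted p = 0.0751) and after the correction (-0.18, 0.0593). TIMM44, which tethers the motor to the channel, did not pass (-0.13, edgeR adjusted p = 0.0894), yet fell by 0.21 after the correction (edgeR adjusted p = 0.00159) at a GC content of 60.3%.

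The matrix processing peptidase works as a pair. PMPCB, its catalytic subunit, was at 38.5, 39.1 and 42.6 CPM in doxycycline samples against 46.6, 44.5 and 47.9 CPM in DMSO samples. It fell by 0.21 (SE 0.0602, edgeR adjusted p = 0.0103), and was not called without doxycycline replicate 1 (-0.18, edgeR adjusted p = 0.0574), with library size alone (0.0501) or after the correction (-0.02, 0.788). PMPCA, the subunit that binds the substrate, was at 69.3, 64.2 and 65.8 CPM in doxycycline samples against 71.6, 79.1 and 68.9 CPM in DMSO samples. It did not pass (-0.14, edgeR adjusted p = 0.0689), but passed as lower without DMSO replicate 3 (-0.18, edgeR adjusted p = 0.0245) and after the correction (-0.16, 0.0186). Without DMSO replicate 2 it stood at -0.08 (edgeR adjusted p = 0.295).

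Related genes were also set against each other as count ratios within each library, which no scaling of the libraries can move. A trend with GC content or length does not cancel in such a ratio where the genes differ in either. Of 7 pairs with both genes tested, MTX1 over MTX2 was the sole pair whose groups did not overlap. Its log2 count ratio was 0.57, 0.43 and 0.52 in doxycycline samples against 0.30, 0.10 and 0.13 in DMSO samples. The mean difference was 0.33 (two-sided exact permutation p = 0.1, the smallest that 3 samples against 3 allow, and 0.7 with Benjamini-Hochberg adjustment over the 7 pairs). MTX1 has a GC content of 55.3% and MTX2 of 44.2%, and after the correction their log2 fold changes stood at 0.00 and -0.10. TIMM17A over TIMM17B differed by -0.16 on the log2 scale, with means of -1.15 ± 0.100 in doxycycline and -0.98 ± 0.147 in DMSO samples (SD, n = 3 each; exact permutation p = 0.2, adjusted 0.7). The groups overlapped, so the call of TIMM17A and the miss of TIMM17B do not show that these genes changed unequally. After the correction TIMM17A and TIMM17B both stood at a log2 fold change of -0.11. The differences of the other pairs were -0.43 for TOMM20 over TOMM20L, -0.11 for TOMM40 over TOMM40L, 0.07 for PMPCA over PMPCB, -0.01 for TIMM10 over TIMM10B and -0.00 for TIMM8A over TIMM8B. In each of these pairs the groups overlapped.

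**Figure D4:**
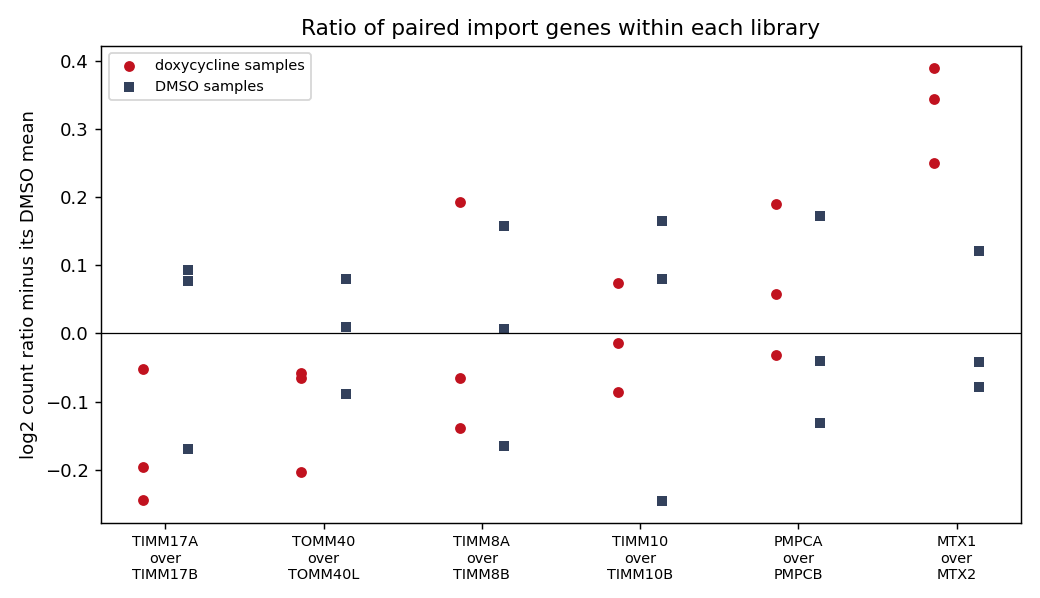
Log2 count ratio of paired import genes within each library, minus the pair's mean in DMSO samples; circles are doxycycline samples and squares DMSO samples. MTX1 over MTX2 is the sole pair whose doxycycline samples all lie above its DMSO samples; TOMM20 over TOMM20L is not drawn because TOMM20L had 6 to 14 counts. GC content and length are not corrected in these ratios.

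Levels per length, in CPM per kb of the principal transcript in GENCODE 29, spanned a wide range within complexes that work as units. TIMM17B was the highest of the tested genes with a length, at 84.5 ± 3.7 in doxycycline and 91.7 ± 8.0 in DMSO samples, and its counterpart TIMM17A stood at 21.8 ± 0.60 in doxycycline and 26.5 ± 0.78 in DMSO samples (SD, n = 3 each). Next were TOMM20 at 56.2 ± 3.2 in doxycycline and 70.3 ± 3.0 in DMSO samples, and TOMM40 at 53.0 ± 0.23 in doxycycline and 63.4 ± 2.3 in DMSO samples (SD, n = 3 each). The levels of TOMM20 and TOMM40 lay within 1 SD of each other in doxycycline samples but not in DMSO samples. Among the tested genes, the lowest levels per length were those of TOMM20L, at 0.670 in doxycycline and 0.621 in DMSO samples, TIMM8A, at 4.73 in doxycycline and 5.43 in DMSO samples, and TIMM21, at 4.39 in doxycycline and 6.09 in DMSO samples. The transcript in use in these cells may be shorter or longer, which would move a gene's level per length but not its fold change.

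**Figure D5:**
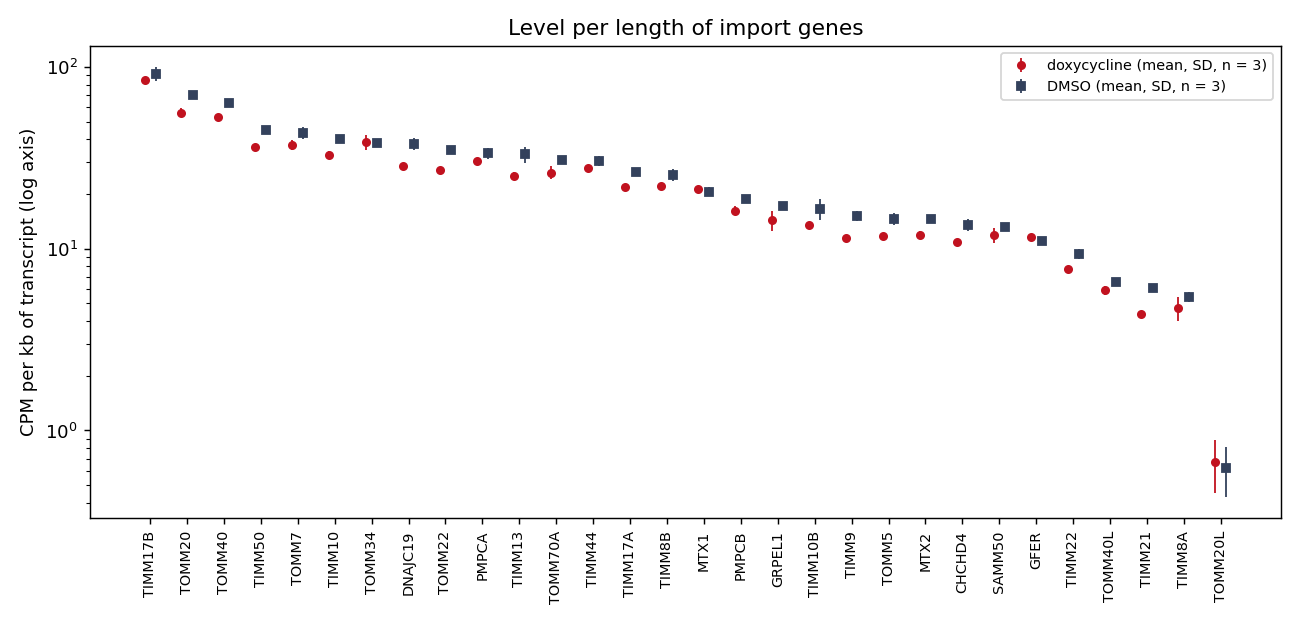
Level per length of the tested import genes in CPM per kb of transcript on a log axis, ordered by the DMSO level; circles are doxycycline and squares DMSO means with SD over 3 samples. Levels run from TIMM17B, at 84.5 in doxycycline and 91.7 in DMSO samples, to TOMM20L, under 1 in both. The identifier counted as TIMM23 is not in GENCODE 29, so TIMM23 has no length here and is not drawn.

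Further genes of import and its surroundings were taken from lists written from general knowledge, with earlier results of these data known. Their counts are therefore no independent support. Of 20 tested import and processing factors that the search by name did not take, 11 fell and 1 rose, at a median of -0.16. After the correction 7 of the 20 fell and 1 rose, at a median of -0.08. Of all tested genes 15.5% were called lower and 13.8% higher, and after the correction 11.4% lower and 10.8% higher. HSPA9, the matrix HSP70 that drives the motor, averaged 244 ± 4.41 CPM in doxycycline and 295 ± 7.45 CPM in DMSO samples and fell by 0.27 (SD, n = 3 each; edgeR adjusted p = 1.38e-04). The chaperonin HSPD1, the outer membrane insertase MTCH2 and MIPEP, a peptidase that trims proteins after the matrix peptidase, fell by 0.38, 0.27 and 0.52. PAM16, the J-like partner of DNAJC19 in the motor, moved the other way and averaged 4.97 ± 0.567 CPM in doxycycline and 3.62 ± 0.351 CPM in DMSO samples (SD, n = 3 each). It rose by 0.46 (SE 0.135, edgeR adjusted p = 0.0123). The PAM16 call was lost without doxycycline replicate 1 (0.36, edgeR adjusted p = 0.0728), without DMSO replicate 2 (0.38, 0.0546) and with DESeq2 (0.0661), and its exons overlap the read-through gene CORO7-PAM16.

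The counts of the lists below stand beside 15.5% of all tested genes called lower and 13.8% called higher. Of 8 genes of MICOS, the complex that shapes the inner membrane folds, 2 fell and 0 rose, at a median of -0.14. CHCHD3 fell by 0.22 and MINOS1 by 0.36. IMMT and APOO did not pass, at -0.12 and -0.15. Of 19 proteins with paired cysteine motifs, the class that CHCHD4 oxidises, 7 fell and 0 rose, at a median of -0.16, led by the complex I subunit NDUFS5 (-0.30), CHCHD1 (-0.39), CMC2 (-0.39) and TRIAP1 (-0.31). Of 14 cytosolic chaperones that keep precursors unfolded, 6 fell and 0 rose, at a median of -0.12, and HSP90AA1, HSPA8, DNAJA1 and DNAJA2 fell by 0.40, 0.25, 0.27 and 0.26. Of 11 genes for outer membrane channels, fission and fusion, 6 fell and 0 rose, at a median of -0.15; the porins VDAC1, VDAC2 and VDAC3 fell by 0.28, 0.26 and 0.22 and the fission enzyme DNM1L by 0.23. After the correction 4 of 8 MICOS genes fell (MINOS1, CHCHD6, C19orf70 and DNAJC11), as did 4 of 19 paired-cysteine proteins (NDUFS5, CHCHD1, CMC2 and CHCHD10). In the same fit 6 of 14 cytosolic chaperones fell (HSP90AA1, HSPA8, HSP90AB1, DNAJB6, STIP1 and NACA) and 1, UBQLN2, rose; STIP1 and NACA were not called before, and DNAJA1 and DNAJA2 were no longer called (-0.10 and -0.13, edgeR adjusted p = 0.0595 and 0.0693). Moreover, 1 of 11 genes for channels, fission and fusion fell, VDAC1. Of all genes fitted with the correction 11.4% were called lower and 10.8% higher. The corrected medians were -0.13 for MICOS, -0.06 for paired-cysteine proteins, -0.11 for cytosolic chaperones and -0.06 for channels, fission and fusion. CHCHD6, C19orf70, DNAJC11, CHCHD10, HSP90AB1, DNAJB6, STIP1, NACA and UBQLN2 are named here after their values were seen. Among proteins of the mitochondrial ribosome, a larger class of nuclear genes for the organelle, 47 of 75 tested genes fell and 0 rose, at a median of -0.24. The import genes stood at 21 of 31 and -0.27. After the correction 27 of 73 ribosomal genes fell, at a median of -0.14, and 11 of 30 import genes, at -0.16. The difference between these classes was not tested.

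In the authors' deposited table, 20 of 30 import genes with an adjusted p-value were lower at an adjusted p-value under 0.05 and 0 were higher, where 15.6% of all genes with an adjusted p-value were lower and 9.79% higher. All 20 were also called lower by edgeR, and no log2 fold change in the authors' deposited table differed from the edgeR value by more than 0.0116. In GENCODE 29, 5 of 30 tested import genes had an exon that overlaps another gene on the same strand: TIMM13, SAMM50, TIMM10B, TOMM40L and TOMM5. An exon that faces a gene on the opposite strand was found in 15 of the 30. Counts of these genes are uncertain, since the strand setting of the counting is not given in the sources used here. Of the 13 without either overlap, 11 fell, with a median of -0.28.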

How the data were processed

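RNA was read in 3 doxycycline and 3 DMSO samples as paired 100-base, strand-specific reads, per the labels' protocols. The authors deposited raw counts per gene, not normalized; STAR 2.5.2a, featureCounts, DESeq2 1.12.4 and hg19 are named per the submitters' processing notes, without their roles. The authors' deposited table holds per gene the mean signal after size factors, the Wald score, p-values and the log2 fold change (doxycycline over DMSO, as the counts show). Genes were kept with filterByExpr, scaled with TMM and tested with edgeR 4.0.16 (quasi-likelihood, treatment alone, R 4.3.3), with Benjamini-Hochberg adjustment over 15492 genes. SE is the log2 fold change over the square root of F. The test was run on simulated data first. GC content and length came from GENCODE 29 (GRCh38) for 97.1% of tested genes; per-library splines with 5 degrees of freedom entered as an offset. Members and lists were chosen with earlier results of these data known. Named genes were the 10 members with the smallest p, related pairs, the extremes of level per length, and of each list the 4 smallest p and any call against the list; every other member may be named too. Alternatives covered RLE, upper-quartile and library-size scaling, 2 filters, DESeq2 1.42.0, left-out replicates, a replicate block and the GC content and length correction.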

Additional observations from a re-analysis of the deposited data

How the results depend on the processing

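Under 16 alternatives import genes called higher numbered 0 throughout, and the median stayed below 0. Without 1 replicate at a time, 18 to 23 import genes fell, 0 to 0 rose, and the median ran from -0.27 to -0.24. In those fits, 1754 to 2344 of 15730 to 15955 tested genes were called lower and 1554 to 2022 higher. The median was -0.22 under upper-quartile scaling, -0.22 when libraries were scaled by size alone and -0.22 without DMSO replicate 2 and doxycycline replicate 1 together, where 17 fell. Without those 2 samples together, 1915 of all 15647 tested genes were called lower. Upper-quartile scaling moved the median of all genes to 0.05. With GC content and length corrected 11 fell with a median of -0.16, and 9 of these were among the 21. With the replicate block added, 13 fell with a median of -0.16. Of all 15036 genes, 1712 were called lower with the correction and 1628 with the block added to it. Why fewer import genes fell with the correction was not tested. With the replicate block alone 21 fell, and 2200 of all 15492 tested genes were called lower. Same-numbered samples deviated with correlations of -0.04, -0.05 and 0.01, which show no shared deviation. Whether same-numbered samples were handled together cannot be told from these values. TOMM20, TOMM22, TOMM40, TIMM10B, TIMM13, TIMM21, TIMM22 and TIMM50 were called in every alternative, and TIMM23 in the 14 that could be fitted for it. Over all genes, calls were 1585 lower and 2871 higher with upper-quartile scaling, against 2408 lower and 2137 higher. The 6 to 14 counts of TOMM20L limit its precision.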
